A study of Mus musculus with 9 samples.

Results

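Resident Kupffer cell markers are genes by which the macrophages that live in the liver's blood sinusoids are recognised: Clec4f, Timd4, Vsig4, Cd5l, Adgre1, Cd163, Marco, C1qa, C1qb and C1qc. The rule names these 10 genes by symbol and uses no measured value, but the list was chosen with earlier results of these data known. Each gene was read from the transcript cluster that carries its symbol in the platform annotation. All 10 were found, with 1 cluster each, among 22206 transcript clusters that carried 19505 distinct symbols. Whole liver was profiled on 9 Clariom S mouse arrays, in 3 groups of 3 male mice. The first group was C57BL/6JHamSlc-ob/ob mice given an extract of Vigna umbellata, the rice bean, by gavage for 42 days at a dose of 100 mg per kg. The second was C57BL/6JHamSlc-ob/ob mice given vehicle, and the third was wild-type C57BL/6JHamSlc-+/+ mice given vehicle. All mice were 6 weeks old at purchase, had 1 week of acclimatisation and ate standard chow throughout. The ob/ob mouse lacks functional leptin in the whole animal from birth, and the extract was given to ob/ob mice and to no wild-type mice here. Each array was taken as 1 mouse. In the main fit a p-value rests on the spread between samples pooled over all 3 groups, and also draws on the spread of the other clusters.

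Kupffer cells are the resident macrophages of the liver. They settle in the sinusoids before birth, renew themselves locally, and remove bacteria, worn red blood cells and dying cells from portal blood. Their identity depends on the lineage factor PU.1, encoded by Spi1, and on signals from endothelial, stellate and hepatic parenchymal neighbours. In fatty liver, resident cells can be lost and partly replaced by cells derived from blood monocytes, which take up the resident markers at different speeds, Timd4 being a late one. A whole-liver array sums over all these cells, so fewer Kupffer cells and less RNA per Kupffer cell cannot be told apart here.

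The values are log2 array signals, and a difference of 1 is a factor of 2. The 9 array medians lay between 5.07 and 5.36. The arrays ob/ob vehicle 3 and wild type 3 stood apart. Their correlations with the other arrays of their own group were 0.948 to 0.955, against 0.980 to 0.990 for all other pairs within a group. The range of a gene that is not expressed was read from 1091 olfactory receptor genes, which are silent in liver. Its upper end, passed by 2.5% of these genes, was 6.44 on ob/ob vehicle 3 and 6.62 on wild type 3, against 5.33 to 5.74 on the other 7 arrays. Between 4 members, on ob/ob vehicle 3, and 9 members lay above that end on an array, and Cd5l was the 1 member above it on all 9 arrays. All 6 measured hepatocyte markers lay above it on every array.

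The stretch of 250 bases before the RefSeq start site is shown for Cd5l, C1qb, C1qc and Cd163. These members had an unadjusted p under 0.05 (limma) for extract against vehicle, and none passed correction. Adgre1 was also under 0.05 but had no matched sequence. Coordinates and letters are those of RefSeq on GRCm38.p6, written 5′ to 3′ on the strand of the gene. Cd5l is at chr3:87357631-87357880 on the plus strand, C1qb at chr4:136886201-136886450 on the minus strand, C1qc at chr4:136892915-136893164 on the minus strand and Cd163 at chr6:124304401-124304650 on the plus strand. The C1qc and Cd163 windows reach into the RefSeq gene spans, which end at 136892936 for C1qc and begin at 124304636 for Cd163. Capitals mark the core that PU.1 binds, GAGGAA, or its reverse complement.
Cd5l: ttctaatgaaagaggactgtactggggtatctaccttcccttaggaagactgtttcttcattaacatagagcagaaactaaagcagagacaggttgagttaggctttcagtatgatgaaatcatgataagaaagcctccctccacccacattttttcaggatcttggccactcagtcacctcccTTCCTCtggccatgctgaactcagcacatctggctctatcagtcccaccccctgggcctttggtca
C1qb: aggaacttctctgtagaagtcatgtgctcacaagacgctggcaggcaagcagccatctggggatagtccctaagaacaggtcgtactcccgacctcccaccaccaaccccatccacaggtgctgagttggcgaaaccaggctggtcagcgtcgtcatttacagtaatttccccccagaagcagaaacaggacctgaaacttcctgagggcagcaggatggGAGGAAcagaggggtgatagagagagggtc
C1qc: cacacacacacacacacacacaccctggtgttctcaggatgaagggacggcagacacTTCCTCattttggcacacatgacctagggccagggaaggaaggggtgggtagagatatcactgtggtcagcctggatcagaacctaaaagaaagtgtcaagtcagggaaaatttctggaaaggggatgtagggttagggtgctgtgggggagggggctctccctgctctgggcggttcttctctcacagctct
Cd163: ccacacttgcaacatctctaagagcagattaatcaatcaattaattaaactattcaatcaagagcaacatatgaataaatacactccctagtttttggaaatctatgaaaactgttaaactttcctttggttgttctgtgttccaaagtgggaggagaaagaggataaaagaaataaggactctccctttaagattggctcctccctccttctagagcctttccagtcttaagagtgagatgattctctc
RefSeq promoters were matched for 8 of the 10 members, all but C1qa and Adgre1. The core GAGGAA on either strand was present in 5 of these 8 (Cd5l, C1qb, C1qc, Marco and, at 2 places, Vsig4), against 23.3% of 32851 promoters of the same length. It began 66 bases before the start in Cd5l, 30 in C1qb and 193 in C1qc, and the Cd163 window held no match. The short site of the Maf factors, TGCTGAC on either strand, was in the Timd4 window alone of the 8, against 3.81% of all promoters. No member window held both motifs. A short core of this kind is also part of the sites of other factors of the same family, and a match is a description of letters, not of binding.

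C1qa, C1qb and C1qc encode the 3 chains of C1q, the protein that recognises immune complexes and dying cells and starts the classical complement pathway. In liver, macrophages are the main source of C1q, and the 3 genes are neighbours on mouse chromosome 4. C1qa measured 6.27, 6.05 and 5.44 in ob/ob livers given extract, 6.81, 6.69 and 5.89 in ob/ob livers given vehicle, and 6.52, 7.69 and 6.27 in wild-type livers. C1qb measured 6.38, 5.58 and 5.26 with extract, 6.58, 7.07 and 6.78 with vehicle, and 6.22, 6.26 and 5.24 in wild type. C1qc measured 6.43, 6.03 and 6.17 with extract, 7.40, 7.17 and 6.28 with vehicle, and 7.17, 7.03 and 7.36 in wild type. C1qb was within the olfactory receptor range on ob/ob extract 3 and wild type 3. C1qa was within it on ob/ob vehicle 3 and wild type 3, and C1qc on ob/ob vehicle 3. The 3 chains thus did not share 1 order. C1qb was highest in all 3 vehicle-treated ob/ob livers, C1qa and C1qc had their highest group mean in wild type, and each chain had its lowest group mean with extract.

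Vsig4 encodes CRIg, the complement receptor by which Kupffer cells catch bacteria coated with C3 fragments. It measured 7.05, 6.85 and 5.58 with extract, 7.68, 7.55 and 5.15 with vehicle, and 7.24, 7.14 and 6.13 in wild type. The third array of each group was the low one, and the groups overlapped. On ob/ob vehicle 3 and wild type 3 the gene was within the range of olfactory receptors.

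Cd163 encodes the receptor that takes up haptoglobin-haemoglobin complexes. It measured 6.84, 7.27 and 6.96 with extract, 5.71, 6.49 and 5.22 with vehicle, and 7.34, 7.66 and 7.00 in wild type. All 3 vehicle-treated ob/ob livers were below every liver of the other 2 groups, and the extract and wild-type groups overlapped. Marco encodes a class A scavenger receptor for bacteria and particles. It measured 5.25, 4.47 and 4.35 with extract, 4.55, 5.15 and 8.22 with vehicle, and 5.03, 5.26 and 5.21 in wild type. The single value above the olfactory receptor range was that of ob/ob vehicle 3, so no group difference can be read from Marco.

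Timd4 encodes TIM-4, a phosphatidylserine receptor for dying cells. It measured 5.84, 5.99 and 5.17 with extract, 6.03, 5.25 and 6.24 with vehicle, and 6.06, 6.12 and 5.45 in wild type. It was above the olfactory receptor range on 5 of 9 arrays and its groups overlapped throughout. Clec4f encodes a C-type lectin that in mice is restricted to Kupffer cells. It measured 7.54, 6.89 and 5.63 with extract, 6.76, 7.41 and 5.44 with vehicle, and 6.56, 7.68 and 6.97 in wild type. Each group spanned more than the distance between any 2 group means, which were 6.69 ± 0.97, 6.54 ± 1.00 and 7.07 ± 0.57 (SD, n = 3 each) in the same order.

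Cd5l encodes AIM, a secreted scavenger protein made by tissue macrophages under control of the liver X receptors. It measured 8.19, 8.10 and 6.40 with extract, 9.63, 9.0 and 10.44 with vehicle, and 8.88, 8.81 and 7.01 in wild type. Every vehicle-treated ob/ob liver was above every other liver. Adgre1 encodes F4/80, the surface protein by which mouse macrophages are commonly stained. It measured 5.99, 5.83 and 5.64 with extract, 6.67, 6.44 and 7.49 with vehicle, and 6.42, 5.74 and 6.84 in wild type. The 3 vehicle-treated ob/ob livers lay above the 3 extract-treated ones and overlapped with wild type.

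**Figure D1:**
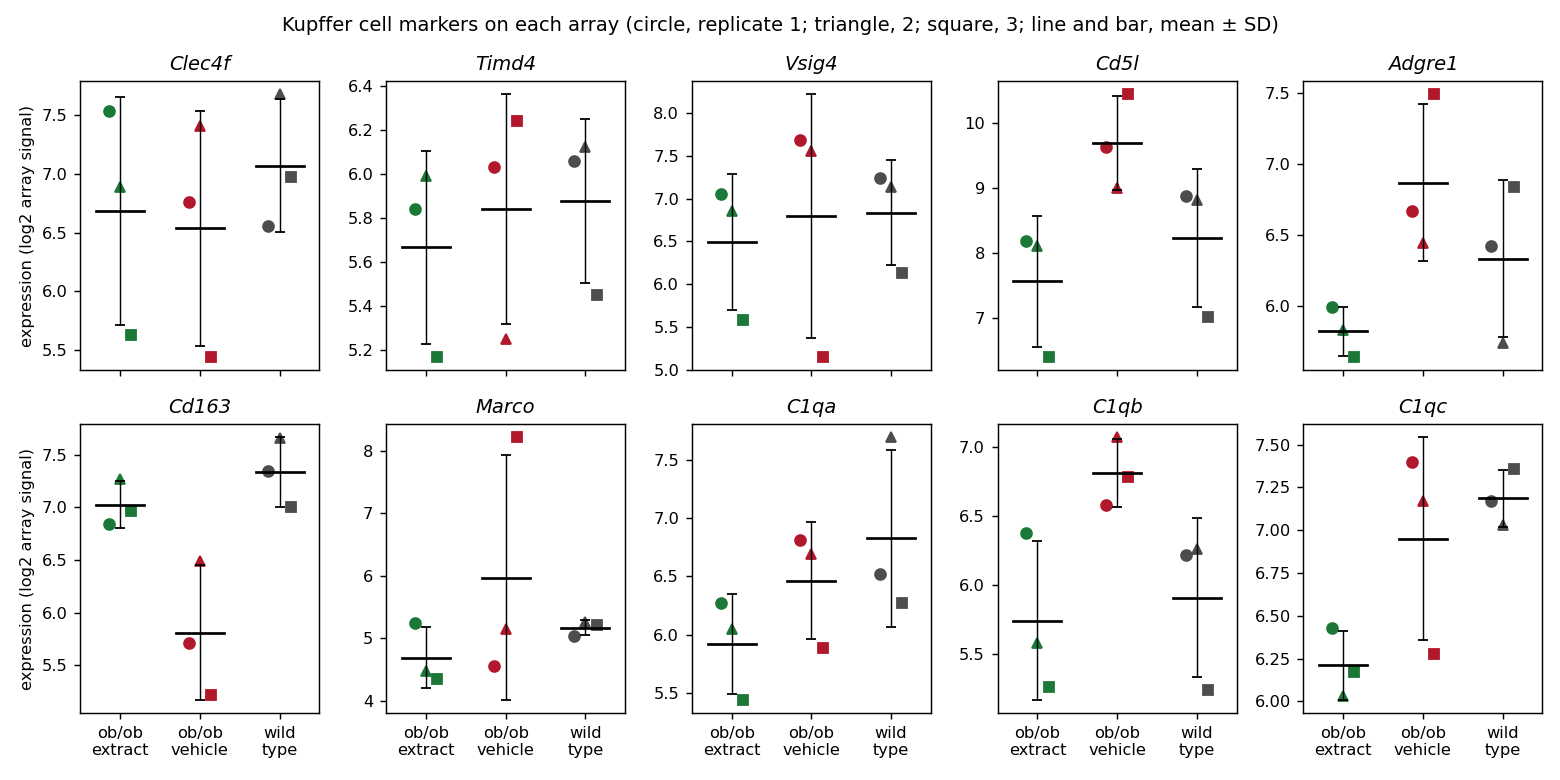
Expression of the 10 Kupffer cell markers in log2 array signal, 1 panel a gene, each with its own vertical axis. Points are the 9 arrays (circle, replicate 1; triangle, 2; square, 3) and lines with bars are group means with SD, n = 3. Cd163 is low, and Cd5l and C1qb are high, in all 3 vehicle-treated ob/ob livers; the squares of ob/ob vehicle lie far from the other 2 arrays for Vsig4, Clec4f and Marco.

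The comparison of vehicle-treated ob/ob with wild-type livers asked how the markers stand in the obese liver. Cd163 was lower in ob/ob livers, at 5.81 ± 0.64 against 7.33 ± 0.33 in wild type (SD, n = 3 each). The difference was -1.53 log2, a 2.88-fold lower signal, with a 95% interval of -2.27 to -0.78 and an adjusted p of 0.0417 (limma over all clusters, Benjamini-Hochberg). It was the 1 member of 10 called at an adjusted p under 0.05, where 2.96% of all clusters were called. The haemoglobin receptor was negative in sign in all 17 other ways of fitting, between -1.87 and -1.23, and its call held in 8 of them. The call was lost when any 1 of the 3 extract arrays or the 3 wild-type arrays, or ob/ob vehicle 1, was left out, with adjusted p between 0.0658 and 0.156. It was also lost with array medians subtracted (0.0778) and with the 2 groups alone (0.125). Without ob/ob vehicle 3, where Cd163 was within the olfactory receptor range, the difference was -1.23 with an adjusted p of 0.0427, and without both arrays that stood apart it was -1.40 with 0.0224.

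Cd5l and C1qb pointed the other way without being called. Cd5l averaged 9.69 ± 0.72 in ob/ob and 8.23 ± 1.06 in wild type, a difference of 1.46 (95% interval 0.09 to 2.82, limma adjusted p = 0.261). C1qb averaged 6.81 ± 0.25 and 5.91 ± 0.58 in the same groups, a difference of 0.90 (0.09 to 1.71, limma adjusted p = 0.239). Both were under an unadjusted p of 0.05. The criterion in the design text asks for that p and for a linear fold above 1.1. It was thus met by 2 members on the higher side and by 1, Cd163, on the lower side. All clusters met it in 10.3% on the higher side and 6.72% on the lower side. The same 3 genes were the members whose groups did not overlap, where 9.71% of all clusters were wholly higher and 9.78% wholly lower. Wild type 3 was low for both Cd5l and C1qb, and C1qb was within the olfactory receptor range there. Without wild type 3, their differences were 0.84 and 0.57, with limma adjusted p of 0.551 and 0.508, and neither met the criterion. Their adjusted p over the 17 alternatives lay between 0.148 and 0.648. Without any 1 of the vehicle-treated arrays, 1 of these genes met the criterion. Without both arrays that stood apart neither did, at 0.47 and 0.58.

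The remaining 7 members lay between -0.53 for Clec4f and 0.81 for Marco, with adjusted p between 0.488 and 0.984. The 95% intervals of Clec4f (-1.81 to 0.74) and C1qa (-1.28 to 0.55) left a factor of 2 open on the lower side only. Those of Marco (-0.86 to 2.48) and Adgre1 (-0.24 to 1.31) left it open on the higher side only, and that of Vsig4 (-1.49 to 1.41) on both. Those of Timd4 (-0.8 to 0.72) and C1qc (-0.92 to 0.44) stayed under a factor of 2 both ways. Timd4 and C1qc were within the olfactory receptor range on ob/ob vehicle 3, which limits that reading. The Marco difference came from 1 array and was -0.32 without ob/ob vehicle 3. The Vsig4 difference was -0.04 and became 0.78 without the same array. The median over the 10 members was -0.04, beside -0.06 over all clusters.

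Extract-treated against vehicle-treated ob/ob livers is the comparison of the treatment itself. Of the 10 markers, 8 had lower means with extract, and Cd163 and Clec4f had higher ones, where 10756 of the 22206 clusters were positive in sign. Cd5l averaged 7.56 ± 1.01 with extract and 9.69 ± 0.72 with vehicle, a difference of -2.13 (95% interval -3.49 to -0.76). Cd163 averaged 7.02 ± 0.22 with extract and 5.81 ± 0.64 with vehicle, a difference of 1.22 (0.47 to 1.96). Neither passed correction, both with a limma adjusted p of 0.707.

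No member was called, nor was any other cluster (0% of 22206, smallest limma adjusted p 0.593), while 1433 clusters had an unadjusted p under 0.05. Besides Cd5l, the criterion of the design text was met on the lower side by the macrophage surface gene Adgre1, at 5.82 ± 0.18 with extract and 6.87 ± 0.55 with vehicle. That difference was -1.05 (-1.82 to -0.27, limma adjusted p = 0.741). The C1q chain C1qb averaged 5.74 ± 0.58 and 6.81 ± 0.25 in the same groups, a difference of -1.07 (-1.88 to -0.26, limma adjusted p = 0.741). On ob/ob extract 3, C1qb was within the olfactory receptor range, which limits the size of that difference. C1qc averaged 6.21 ± 0.20 and 6.95 ± 0.59, a difference of -0.74 (-1.42 to -0.06, limma adjusted p = 0.765). So 4 of 10 members met it on the lower side and 1, Cd163, on the higher side, beside 2.9% and 3.56% of all clusters.

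Groups did not overlap for 3 members with lower values under extract (Cd5l, Adgre1 and C1qb) and for 1 with higher values (Cd163). Over all clusters, 6.08% were wholly lower and 7.47% wholly higher. C1qc overlapped through ob/ob vehicle 3, at 6.28 and within the olfactory receptor range. The other 2 vehicle arrays were above all 3 extract arrays. The median over the 10 members was -0.64, beside -0.01 over all clusters. The members are expressed in the same cells and are not independent of each other.

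These counts moved with single arrays. With ob/ob extract 3 left out, 2 members met the criterion on the lower side (Cd5l and Adgre1, at -1.54 and -0.96), and the same held without ob/ob vehicle 2 (-2.47 and -1.26). Without ob/ob vehicle 3 there were 5, and without both arrays that stood apart there were 6. In that last fit 360 clusters were called and 0 members were. Cd5l was then -1.75 (adjusted p = 0.0902), C1qc -1.08 (0.0578), C1qb -1.08 (0.137), Adgre1 -0.74 (0.222) and Cd163 0.92 (0.153). The signs of these 5 genes were the same in all 17 alternatives, over which their adjusted p lay between 0.0578 and 0.99.

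**Figure D2:**
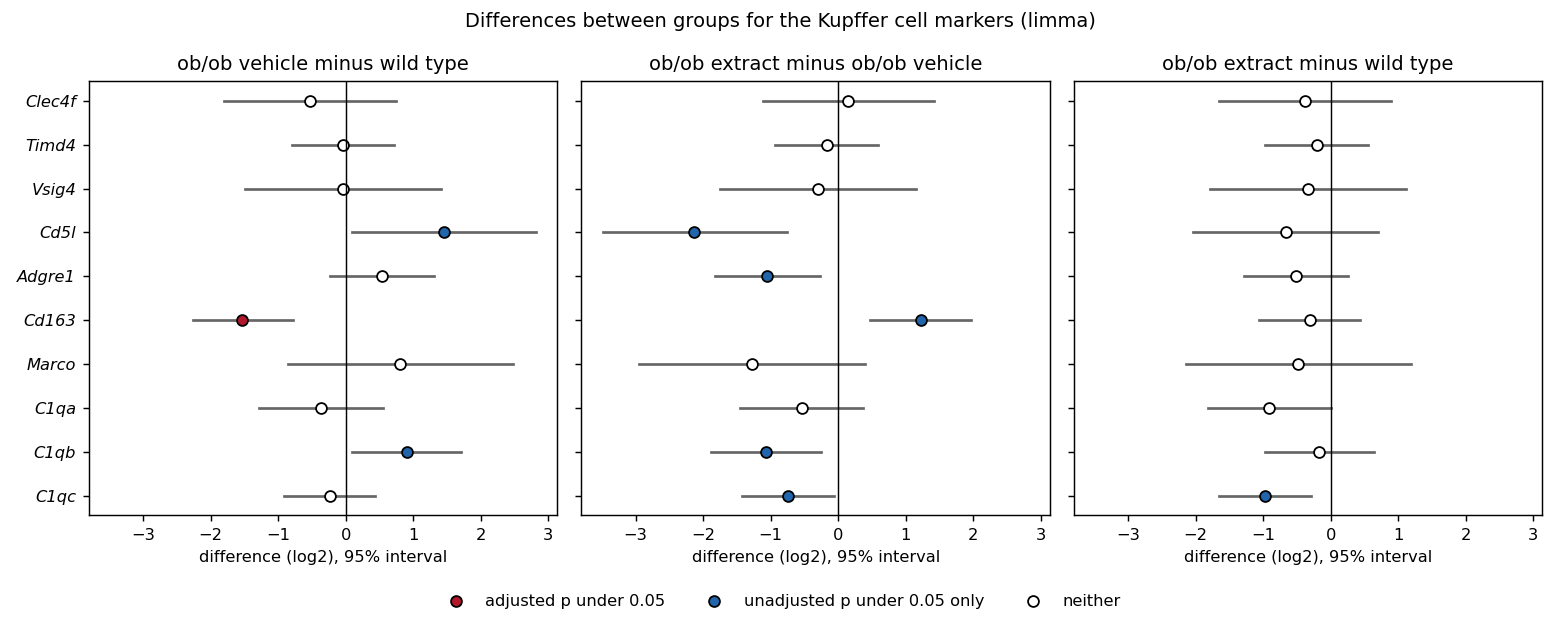
Differences between groups in log2 for each marker, with 95% intervals from limma, in the 3 comparisons. Filled red marks an adjusted p under 0.05 and filled blue an unadjusted p under 0.05 only. Cd163 against wild type is the single red point, and Cd5l, Adgre1, C1qb and C1qc lie left of 0 and Cd163 right of 0 for extract against vehicle.

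Extract-treated ob/ob against wild-type livers asked how far the treated livers stood from the lean ones. All 10 members had lower means in extract-treated ob/ob livers, by between 0.17 log2 for C1qb and 0.98 log2 for C1qc, and 0 were called, where 1.29% of all clusters were. C1qc averaged 6.21 ± 0.20 in extract-treated livers and 7.19 ± 0.17 in wild type, a difference of -0.98 (95% interval -1.66 to -0.30, limma adjusted p = 0.187). It was the 1 member that met the design text's criterion on the lower side and the 1 member whose groups did not overlap. Over all clusters, 5.82% met the criterion on the lower side and 10.6% were wholly lower, with 8.21% and 11.1% on the higher side, where no member stood. The count at the criterion was 3 without wild type 3 and 1 or 2 without each other array.

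C1qa came next in size at 5.92 ± 0.43 in extract-treated livers and 6.83 ± 0.76 in wild type, a difference of -0.91 (limma adjusted p = 0.359). Wild type 2, at 7.69, carried part of it, and the difference was -0.48 without that array. Cd163 differed by -0.31 (-1.06 to 0.44) and Cd5l by -0.67 (-2.04 to 0.70), intervals that include 0. Leaving out each array in turn gave -0.48 to -0.15 for Cd163. For Cd5l it gave -0.09 without ob/ob extract 3 and -1.28 without wild type 3, at the extremes. The median over the members was -0.43, beside -0.05 over all clusters. The shared sign rested on ob/ob extract 3: without it 6 of 10 members were negative.

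The ob/ob vehicle arrays stand in both of the first comparisons and the extract arrays in both of the last, so opposite signs in the first pair are partly built in. Given side by side for ob/ob vehicle minus wild type, extract minus vehicle and extract minus wild type, Cd163 had -1.53, 1.22 and -0.31. Cd5l had 1.46, -2.13 and -0.67 in that order. C1qb had 0.90, -1.07 and -0.17, and Adgre1 had 0.53, -1.05 and -0.51. C1qc differed from these in having negative values in all 3, at -0.24, -0.74 and -0.98.

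Relative to each gene's own mean, the members did not move as 1 block across arrays. Ob/ob vehicle 3 held the highest value of the 9 arrays for Timd4, Cd5l, Adgre1 and Marco and the lowest for Clec4f, Vsig4 and Cd163. Of these, Timd4, Clec4f, Vsig4 and Cd163 were within the olfactory receptor range of that array, so those 4 extremes are not clear of background. The mean over the members hid the opposite extremes, at 0.17 on that array beside 0.24 and 0.28 on the other 2 vehicle arrays. Ob/ob extract 3 was lowest for Timd4, Cd5l, Adgre1, Marco and C1qa, with a member mean of -0.88, against 0.03 and -0.24 on the other extract arrays. Timd4 and Marco were within the olfactory receptor range of that array. Wild-type livers had member means of 0.20, 0.40 and -0.20. The widest range over the arrays was that of the secreted Cd5l, at 4.04 log2, and the narrowest that of Timd4, at 1.07.

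**Figure D3:**
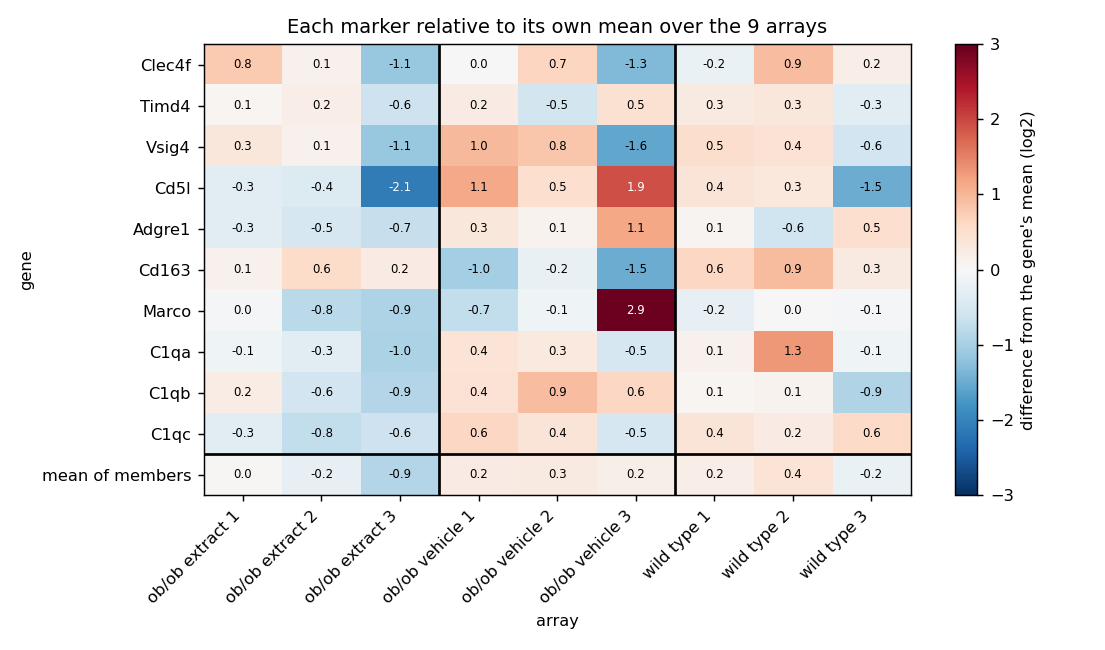
Each marker's log2 value on each of the 9 arrays minus the gene's mean over the arrays (rows, genes with the mean of the members at the bottom; columns, arrays by group; colour and printed number, the difference). Ob/ob vehicle 3 is high for Marco and Cd5l and low for Vsig4, Cd163 and Clec4f, and ob/ob extract 3 is low for most genes. On ob/ob vehicle 3, Vsig4, Cd163 and Clec4f were within the olfactory receptor range.

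Likeness between patterns was measured as the root mean square difference of values standardised over the 9 arrays, where 0 is the same pattern. Among the members the nearest pair was Cd5l with C1qb, at 0.53 SD, followed by Clec4f with Vsig4 at 0.67 and Adgre1 with Marco at 0.72. The farthest pair was Adgre1 with Cd163, at 1.88. C1qa lay nearer to Clec4f (0.74) than to its partner chain C1qb (1.08). These values describe 9 arrays that share the outlying ones. Among 17629 other named genes, those nearest to the mean of the members were Cdca5 at 0.26, Tnfaip2 at 0.36, Folr2 at 0.40, Rassf7 at 0.41 and Arrb1 at 0.44. Cdca5 lay within the olfactory receptor range on all 9 arrays, so its likeness is not one of measured expression. Folr2 encodes a folate receptor carried by resident macrophages. It measured 5.48, 4.64 and 3.68 with extract, 5.79, 5.55 and 5.07 with vehicle, and 5.23, 5.80 and 5.30 in wild type. It was above the olfactory receptor range on 4 of 9 arrays, and ob/ob extract 2 and 3 lay within it, so the size of its difference between extract and vehicle (limma adjusted p = 0.775) is not given.

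Of 9 further measured genes enriched in Kupffer cells, such as Clec1b, Folr2 and the iron exporter Slc40a1, none of the 3 comparisons had 1 that was called or under an unadjusted p of 0.05. Their medians were -0.03 for ob/ob vehicle against wild type, -0.19 for extract against vehicle and -0.27 for extract against wild type. Of 8 measured transcription factors of Kupffer cell identity, 1 was called. Spi1, which encodes PU.1, measured 7.55, 7.16 and 6.61 with extract, 10.19, 9.85 and 8.49 with vehicle, and 7.07, 8.08 and 7.17 in wild type. All 3 vehicle-treated ob/ob livers were above all others. The difference was 2.07 for ob/ob vehicle against wild type (SE 0.46, limma adjusted p = 0.0427). For extract against vehicle it was -2.40 (SE 0.46, limma adjusted p = 0.593). The first call was kept in 7 of 17 alternatives, and without any single array other than ob/ob vehicle 3 its adjusted p lay between 0.0608 and 0.155. Spi1 was called for extract against vehicle without ob/ob vehicle 3 (-2.91, adjusted p = 0.0266) and without both arrays that stood apart (-2.91, 0.00625), and its adjusted p in that comparison reached 0.99 in other alternatives. Nr1h3, which encodes the liver X receptor that drives Cd5l in macrophages and is also made by hepatocytes, differed by 1.00 (limma adjusted p = 0.247) for ob/ob vehicle against wild type.

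Genes carried by all macrophages gave a median of 0.57 over 11 measured members for ob/ob vehicle against wild type, -0.65 for extract against vehicle and -0.32 for extract against wild type. In the first comparison 7 of the 11 were positive in sign, and the others lay between -0.37 and -0.04. The design text's criterion was met by 4 of the 11 on the higher side (Lyz2, Mpeg1, Cybb and Fcer1g), beside 10.3% of all clusters. By the test 1 rose, Cybb, the catalytic subunit of the phagocyte oxidase. It measured 8.38, 8.30 and 9.02 in vehicle-treated ob/ob livers and 7.21, 7.24 and 6.66 in wild-type livers, a difference of 1.53 (limma adjusted p = 0.0414). With the replicate number as a block the call was lost (adjusted p = 0.0604), as it was without each array other than ob/ob extract 3 and ob/ob vehicle 3, with adjusted p up to 0.124. Without both arrays that stood apart the difference was 1.12 (adjusted p = 0.0730). Lyz2, the macrophage lysozyme, measured 8.76, 9.12 and 11.25 with vehicle and 8.62, 8.02 and 7.00 in wild type, so ob/ob vehicle 3 stood far above the others. Its difference of 1.83 (limma adjusted p = 0.144) was 1.06 without that array and 0.62 without both arrays that stood apart. Mpeg1, a pore-forming protein of phagocytes, differed by 1.58 (limma adjusted p = 0.114), and by 0.96 without both arrays. For extract against vehicle 0 were called, and Fcer1g, Cd53 and Mpeg1 met the design text's criterion on the lower side, at -1.21, -0.89 and -1.18. Over all clusters 2.9% did so. The mean level of this list was 5.78 to 6.64 with extract, 6.82 to 7.28 with vehicle and 5.98 to 6.66 in wild type. In that mean the vehicle group was above the other 2, but only 4 of the 11 genes were above the olfactory receptor range on every array.

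Among 10 niche ligands and receptors, which include the growth factor receptor Csf1r and the Notch ligand Dll4, 0 were called by limma in any comparison. Dll4 and Tgfb1 met the design text's criterion on the higher side for ob/ob vehicle against wild type, Tgfb1 at 0.73, beside 10.3% of all clusters. No gene of the list did in the other comparisons. Dll4 was above the olfactory receptor range on ob/ob vehicle 1 and 2 alone, so no size is given for it. Of 8 measured partners and inhibitors of C1q, C2 was lower in ob/ob livers. It measured 9.67, 9.73 and 10.25 with extract, 9.12, 9.74 and 10.74 with vehicle, and 11.64, 12.45 and 11.91 in wild type. The C2 difference was -2.13 with vehicle (limma adjusted p = 0.0222) and -2.12 with extract (0.0333), both against wild type. The calls held in 12 and 11 of 17 alternatives. Both were lost without ob/ob vehicle 2, wild type 2 or wild type 3, the first also without ob/ob vehicle 1 and the second without any 1 extract array, with adjusted p up to 0.104 and 0.172. C1ra and C1s1, the proteases that C1q activates and that hepatocytes make, differed by -1.46 and -1.28 for vehicle against wild type, with limma adjusted p of 0.256 and 0.169. Without ob/ob vehicle 3 these were -0.80 and -0.76, and leaving out each array in turn gave -2.08 to -0.80 and -1.70 to -0.76. For extract against wild type they differed by -1.93 and -1.49, with limma adjusted p of 0.188 and 0.170, and the groups did not overlap. Without both arrays that stood apart, C1ra was called in both comparisons with wild type (-1.42 with vehicle and -2.54 with extract) and C1s1 in that with extract (-1.73).

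Of 9 other receptors and bridging ligands for dying cells, Gas6 rose in ob/ob livers. Gas6, the ligand of the receptor Mertk, measured 9.36, 8.96 and 8.30 with extract, 10.26, 9.48 and 9.63 with vehicle, and 7.61, 6.61 and 6.16 in wild type. The value of wild type 3 was within the olfactory receptor range. Against wild type the difference was 3.00 with vehicle (limma adjusted p = 0.00546) and 2.08 with extract (0.0409). The first call held in all 17 alternatives. The second held in 9, and was lost without any 1 array other than ob/ob vehicle 3 and wild type 1, with adjusted p up to 0.190. Mertk itself averaged 7.96 ± 0.63 with extract and 6.97 ± 0.68 with vehicle, a difference of 1.00 (limma adjusted p = 0.765).

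Beside Cd163, 9 genes of scavenging and of haemoglobin and heme handling were measured, and 3 rose in vehicle-treated ob/ob against wild-type livers. They were the fatty acid transporter Cd36 (a difference of 6.67, limma adjusted p = 1.17e-06), the biliverdin reductase Blvrb (1.94, 0.0297) and the heme oxygenase Hmox1 (1.18, 0.0278). The call of Cd36 held in all 17 alternatives, that of Blvrb in 11 and that of Hmox1 in 9. Without ob/ob extract 2, ob/ob vehicle 1 or 2, or wild type 2 or 3, both Blvrb and Hmox1 lost it, with adjusted p up to 0.122. Hmox1, whose enzyme breaks down the heme that Cd163 brings in, measured 8.33, 8.05 and 7.75 with extract, 9.41, 9.35 and 9.50 with vehicle, and 8.35, 8.11 and 8.25 in wild type. The vehicle-treated ob/ob livers were above all others in Hmox1 and below all others in Cd163. For extract against vehicle Hmox1 differed by -1.38 (limma adjusted p = 0.593), and it was called without both arrays that stood apart (-1.34, adjusted p = 0.0314, with a range of 0.0256 to 0.99 over the alternatives). Cd36 and Blvrb were also called in extract-treated livers against wild type, at 6.23 and 2.29. The first of these held in all 17 alternatives and the second in 12, being lost without ob/ob extract 1 or 2 or wild type 2 or 3. Hepatocytes express all 3 genes in obese or stressed liver, so their source cell is not known from these arrays.

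Among markers of other leukocytes, most lay within the olfactory receptor range. All 9 measured B, T and NK cell markers, 7 of 9 monocyte markers, 5 of 8 neutrophil markers and 5 of 7 dendritic cell markers were above it on no array, and none of these 4 lists had a gene called by limma. Ccr7, the chemokine receptor of migrating dendritic cells, was above the range on all 9 arrays. It measured 6.27, 6.41 and 6.24 with extract, 6.34, 6.41 and 7.10 with vehicle, and 7.14, 7.95 and 7.96 in wild type, which was above both ob/ob groups on every array. Against wild type it differed by -1.07 with vehicle (limma adjusted p = 0.0987) and by -1.38 with extract (0.0628). These differences were called in 4 and 5 of 17 alternatives, leaving out both arrays that stood apart among them. At an unadjusted p under 0.05 each of the 4 lists had at most 2 genes in a comparison. The most was 2 of 7 dendritic cell markers lower for ob/ob vehicle against wild type, beside 6.72% of all clusters. The mean level of the monocyte list was 4.19 to 4.46 with extract, 4.25 to 4.82 with vehicle and 4.09 to 4.42 in wild type, with the highest value on ob/ob vehicle 3. The mean of the neutrophil list was 4.15 to 4.75 with extract, 4.13 to 4.99 with vehicle and 4.46 to 4.75 in wild type. Of the monocyte markers Cx3cr1 met the design text's criterion for extract against vehicle, at 3.27 ± 0.22 and 4.60 ± 0.49, both within the olfactory receptor range. Among 7 lipid-associated macrophage markers Cd63 rose and Fabp5 fell in ob/ob livers against wild type. Trem2 was above the olfactory receptor range on 0 of 9 arrays and Gpnmb on 2, and Cd9 and Lpl were not called in any comparison. The Fabp5 differences were -1.72 with vehicle and -1.82 with extract. Fabp5 was within the olfactory receptor range on ob/ob vehicle 3. With extract it measured 5.56 to 5.62, just above upper ends of 5.33 to 5.45, so these sizes are limited by that range. Cd63 lay within the olfactory receptor range on all 3 wild-type arrays. With extract its mean signal was 1.38-fold above the mean upper end of that range on those arrays, a figure without the spread between arrays. Ob/ob vehicle 3, at 6.26, was also within the range of its array, so no size is given with vehicle. The limma adjusted p of the 4 differences of Cd63 and Fabp5 lay between 0.0111 and 0.0165. Each of these calls was lost without wild type 2 and without at least 1 array of the ob/ob group concerned, with adjusted p up to 0.0965. Both genes are also made by cells other than macrophages. Mmp12, a macrophage elastase, was also within that range on all 3 wild-type arrays. With vehicle its mean signal was 4.16-fold above the same upper end, again without the spread between arrays (limma adjusted p = 0.0578 against wild type). It was called in 8 of 17 alternatives, which included the replicate block (0.0178) and leaving out both arrays that stood apart (0.0238).

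Of the other cells of the liver, 0 of 10 sinusoidal endothelial markers and 0 of 6 hepatocyte markers were called in any comparison. The hepatocyte genes Alb, Ttr and Apoa1 shared the same value on each wild-type array, close to the highest value in the data. A rise over wild type could hardly be seen in these genes, so the lack of a call says little about them on the higher side. Of 9 stellate cell markers 1 was called, Rgs5, with 1.93 for ob/ob vehicle against wild type (limma adjusted p = 0.0427). That call was lost with the replicate block (0.0582) and without each array other than ob/ob extract 1 and ob/ob vehicle 3. On wild type 3, Rgs5 was within the olfactory receptor range. Cholangiocyte and erythroid lists, with 4 and 3 measured genes, had 0 called. At an unadjusted p under 0.05 each of the endothelial, hepatocyte, cholangiocyte and erythroid lists had at most 2 genes in a comparison. For ob/ob vehicle against wild type, 2 of 6 hepatocyte genes were lower, beside 6.72% of all clusters. They were Apoa1 at -1.44 and Cps1 at -0.95 (limma adjusted p = 0.114 and 0.293). There, 1 of 4 cholangiocyte and 1 of 3 erythroid genes were higher, beside 10.3%, and 1 of 10 endothelial genes stood on each side. The stellate list had 2 genes higher for ob/ob vehicle against wild type and 0 for extract against vehicle. For extract against wild type it had 3 higher (Rgs5 at 1.35, Lrat at 0.82 and Dcn at 0.81) and 2 lower (Col1a1 at -0.75 and Reln, named here after its values were seen, at -0.85), with limma adjusted p between 0.188 and 0.322. Over all clusters 8.21% were higher and 5.82% lower by the design text's criterion. The part of these cells in the values of the members was not tested.

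**Figure D4:**
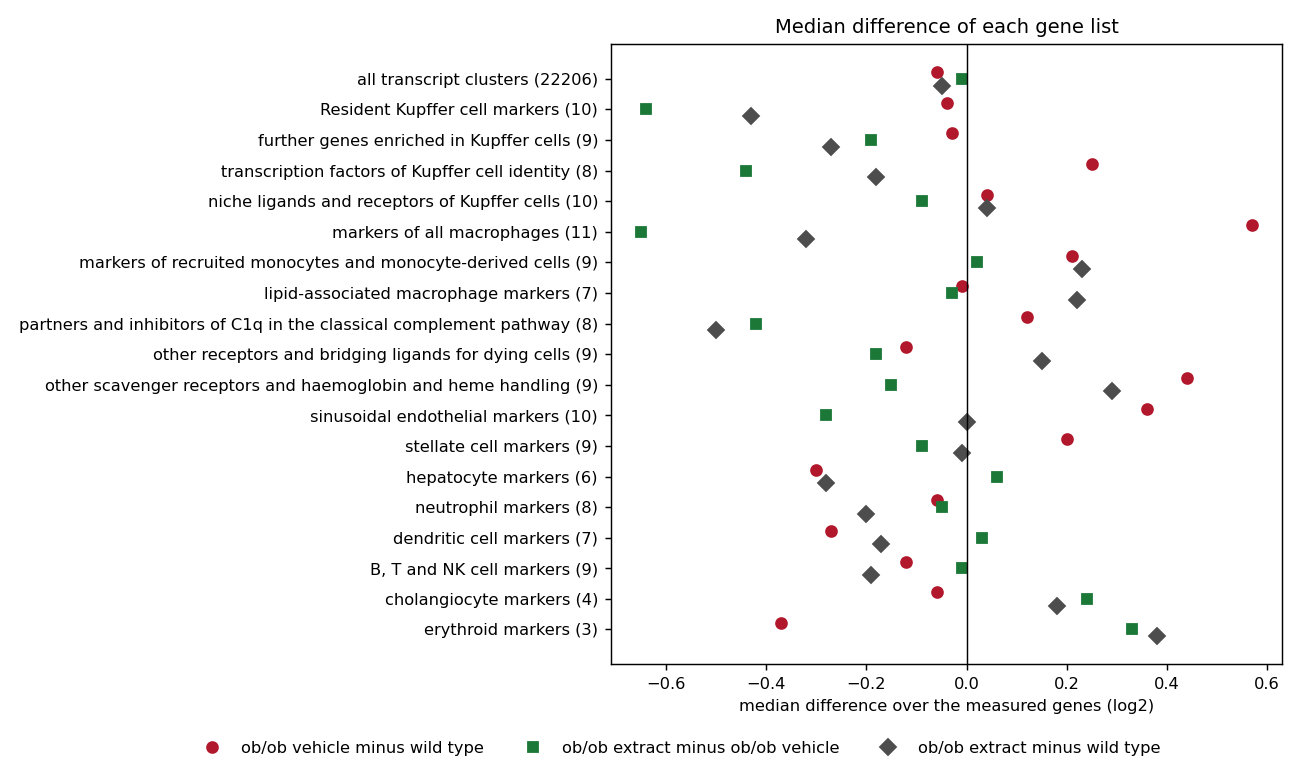
Median log2 difference over the measured genes of each list (number in brackets) in the 3 comparisons, with all 22206 clusters on the top row. For extract minus ob/ob vehicle, squares lie farthest to the left for the markers of all macrophages (-0.65) and the resident Kupffer cell markers (-0.64).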

How the data were processed

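RNA from 9 mouse livers was hybridised to Clariom S arrays, from about 100 ng of total RNA extracted with ISOGEN, per the labels. The log2 values that the authors deposited, with each transcript cluster measured once an array, were made with SST-RMA in Transcriptome Analysis Console 4.0.2 per the design text. That step stretches compressed fold changes, so sizes depend on it. Values ran from 1.86 to 19.93. Detection calls were not used here, so the design text's detection filter was not applied. The genome build of the array is not given in the sources used here, and RefSeq GRCm38.p6 served for names and promoters only. For arrays, their number limits the precision.

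GEO's platform annotation gave 19572 of 22206 clusters 1 symbol, 0 several and 2634 none, and all 19572 Entrez identifiers matched RefSeq. Tests used limma 3.58.1 (R 4.3.3; lmFit with a mean per group over 9 arrays, 6 residual and 4.45 prior degrees of freedom, eBayes, two-sided), with Benjamini-Hochberg adjustment over all clusters. The fit was tested on simulated data with known changes. A gene was called at an adjusted p under 0.05. The members, the 17 other lists (151 genes, 136 measured) and the tests were chosen with earlier results of these data known. The rule for named genes took all members, up to 4 genes by smallest p from each other list in each comparison, and the 5 genes nearest to the mean of the members. Clec1b, Slc40a1 and Csf1r are named outside it, as examples without a result. Promoters were searched for exact motifs on both strands.

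The groups share replicate numbers that the labels do not explain. Each array's deviation from its group mean was set against that of the array with the same number. The correlations were 0.256, 0.262 and 0.450 between ob/ob vehicle and wild type, all over 0.1, which met the rule for pairing. The main fit still used no pairs, so its p-values leave the pairing out. Pairs entered only through the replicate block, which was fitted over all 9 arrays, the extract arrays included. The correlations were -0.208 to 0.0157 in the pairs with extract arrays, which did not meet the rule for pairing. Alternatives were quantile normalization, array medians subtracted, the dimmest 50% of clusters left out, the 2 groups alone, a replicate block, array weights, an intensity trend with robust prior, each array left out, and, added after seeing the data, both arrays that stood apart left out.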

Additional observations from a re-analysis of the deposited data

How the results depend on the processing

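Each comparison was refitted under 17 alternatives, and the cause of the changes below was not tested. For vehicle-treated ob/ob against wild-type livers, 658 clusters were called, against 2137 with array weights, 207 with the 2 groups alone, 1745 without both arrays that stood apart and 147 to 1679 when each array was left out. The members called were 0 with array medians subtracted and with the 2 groups alone, and 0 to 1 when each array was left out. For extract against vehicle, 0 clusters were called, against 106 with array weights, 360 without both arrays that stood apart and 0 to 51 when each array was left out. For extract against wild type, 287 were called, against 796 with array weights, 595 without both arrays and 77 to 598 when each array was left out. The replicate block gave 579, 0 and 283 called clusters and changed no member's call, Cd163 included. It changed 3 calls among the other named genes, those of Cybb, Rgs5 and Mmp12. Only uncalled members changed sign. For vehicle against wild type, array medians subtracted gave 0.08 for Timd4 and 0.08 for Vsig4, and quantile normalization gave 0.05 for Timd4. Array weights gave 0.41 for Vsig4 and 0.05 for C1qc. Leaving out both arrays gave 0.42 for Vsig4, -0.30 for Marco and 0.18 for C1qc. Leaving out each array gave -0.97 to 0.02 for Clec4f, -0.25 to 0.26 for Timd4, -0.49 to 0.78 for Vsig4, -0.32 to 1.52 for Marco, -0.64 to 0.07 for C1qa and -0.46 to 0.10 for C1qc. For extract against vehicle, array weights gave -0.41 for Clec4f and 0.14 for Timd4, and leaving out both arrays gave -0.40 and 0.03. Leaving out each array gave -0.40 to 0.68 for Clec4f, -0.47 to 0.08 for Timd4 and -1.12 to 0.16 for Vsig4. For extract against wild type, leaving out each array gave -0.81 to 0.14 for Clec4f, -0.42 to 0.04 for Timd4, -0.70 to 0.11 for Vsig4 and -0.50 to 0.07 for C1qb. Quantile normalization moved the share of called clusters that were higher to 53.1%, against 77.1%, for vehicle against wild type, and to 61.2%, against 75.6%, for extract against wild type. Subtracting array medians moved the median of all clusters to 0.06, against -0.06, and to 0.09, against -0.05, in those comparisons. No member has a second cluster, so that alternative gave no value. With 3 livers per group and members near the olfactory receptor range on the arrays that stood apart, differences of a factor of 2 were often not detectable.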
